A study of Mus musculus with 6 samples.

Results

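The baseline translatome of lung pericytes was described from 3 control mice at postnatal day 8 (P8), that is, from the RNA that co-precipitated with tagged ribosomes after Cre recombination by Pdgfrb(BAC)-CreERT2. These 3 libraries, control 1, control 2 and control 3, were 3 of the 6 samples of the study, and only they were used. Genes were ranked by their mean RPKM (reads scaled to exon length and to sequencing depth) in the 3 libraries, and 11861 of the 21603 genes listed in each file (54.9%) had a mean of 1 RPKM or more. Those 11861 genes are the members described here. Every later count of list members is to be read beside this share of 54.9%.

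In RiboTag mice Cre activity switches the ribosomal protein RPL22 to a form with a haemagglutinin (HA) tag, and an anti-HA precipitate from whole lung lysate then recovers transcripts on the ribosomes of recombined cells. All control mice were on a C57BL/6 background and were labelled Yap1+/-;Wwtr1+/-. According to the study's methods they were lox/+ at Yap1, at Wwtr1 and at Rpl22, carried the Cre transgene, and received tamoxifen in the first days after birth. Recombined control cells therefore keep a single intact copy of Yap1 and of Wwtr1 and are not wild type. The transgene is driven by Pdgfrb regulatory sequence, so any cell that used Pdgfrb when tamoxifen was given can carry the tag. RNA of the whole lung lysate was not analysed here, and a level in the precipitate cannot separate few cells with much of an RNA from many cells with little of it.

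Pericytes are mural cells that lie within the basement membrane of capillaries and small vessels, next to the endothelium. They receive PDGF-B from endothelial cells through PDGFRβ, exchange Notch, TGFβ and angiopoietin signals with them, and produce basement membrane together with them. In the postnatal lung, capillaries remodel while alveolar septa grow and elastin is laid down, so matrix producers, mural cells and epithelium lie in close contact in the tissue.

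Values are the authors' RPKM, which are scaled per length and can be set side by side between genes. A value after ± is the standard deviation over the 3 lungs (n = 3), and no test was run because only 1 condition is described. Summed RPKM was 253540, 239092 and 242240 in controls 1, 2 and 3. The read steps left in low values gave denominators of 19.69, 17.41 and 34.67 M reads, so that 3 reads on a transcript of 1 kb are worth 0.152, 0.172 and 0.0865 RPKM, and values near these levels rest on a few reads. Log2(RPKM + 0.1) values of the members correlated across genes with a Pearson r of 0.990 between controls 2 and 3, and of 0.979 and 0.983 between control 1 and each of them. The members just inside the limit were Slfn1, Mlc1 and Sptb with means from 1.001 to 1.002 RPKM, and those just outside were Bnc2, Tarsl2 and Mterf1a with means from 0.9976 to 0.9997 RPKM. In each library 11801, 11925 and 11837 genes reached 1 RPKM, and 11598 genes did so in every library.

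The most abundant ribosome-bound transcript was Actb (ENSMUSG00000029580, chr5:142903115-142906754 on GRCm38), which encodes cytoplasmic β-actin, at 2067, 2284 and 2342 RPKM in controls 1, 2 and 3. Next came Eln, which encodes tropoelastin, the monomer of elastic fibres, at 1504, 2001 and 1602 RPKM. Pdgfrb, whose regulatory sequence drives the Cre transgene, was the third by mean, at 1666, 1369 and 1565 RPKM, and ranked 2, 3 and 3 within the libraries. The ranges of Eln and Pdgfrb overlapped, with Pdgfrb above Eln in control 1 and below it in controls 2 and 3. The rest of the 10 most abundant were the adult β-globin gene Hbb-bs (1216 ± 127 RPKM), the matricellular genes Sparc (1059 ± 21.6) and Postn (1053 ± 79.6), the galectin gene Lgals1 (1001 ± 44.9), the linker histone gene Hist1h1e (989 ± 96.5), the soluble guanylate cyclase subunit gene Gucy1a1 (961 ± 89.1) and the myosin light chain gene Myl6 (919 ± 46.7). Of the 10 highest genes of each library, 9 were common to all 3. Of the 30 highest, 26 were common, and of the 100 highest, 88.

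Ranks 11 to 30 mixed matrix, contractile and housekeeping transcripts with mural cell genes. They held Col4a1 and Col4a2, the main chains of basement membrane collagen, Col3a1, the collagen chaperone gene Serpinh1 and the secreted gene Sparcl1. Contractile and cytoskeletal genes at these ranks were Myl9, Acta2, Tpm4, Cfl1 and Tmsb4x. The mural cell genes were Cox4i2, an isoform of a cytochrome c oxidase subunit, at 912, 689 and 765 RPKM, Mcam, a cell adhesion molecule also called CD146, at 714, 657 and 759 RPKM, and Pde5a, which breaks down cyclic GMP, at 726, 585 and 683 RPKM. The remainder were the elongation factor gene Eef1a1 (865 RPKM), Ptma (668), Mfge8 (629), Crip1 (574), the cystatin gene Cst3 (557), the carbonic anhydrase gene Car2 (483) and the α-globin gene Hba-a1 (449).

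Abundance was spread over many genes. The 10 genes of highest mean held 4.93%, 5.32% and 5.28% of the summed RPKM, the 100 highest held 19.6% in each library, and 958 genes held 50% of the summed mean. Means of 10 RPKM or more were reached by 5400 genes, and of 100 RPKM or more by 334 (1.55%). The median was 1.93 RPKM over all genes and 8.79 RPKM over the members. By annotation 11816 members were protein coding, 29 were of another class and 16 had no symbol in GENCODE M21.

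**Figure D1:**
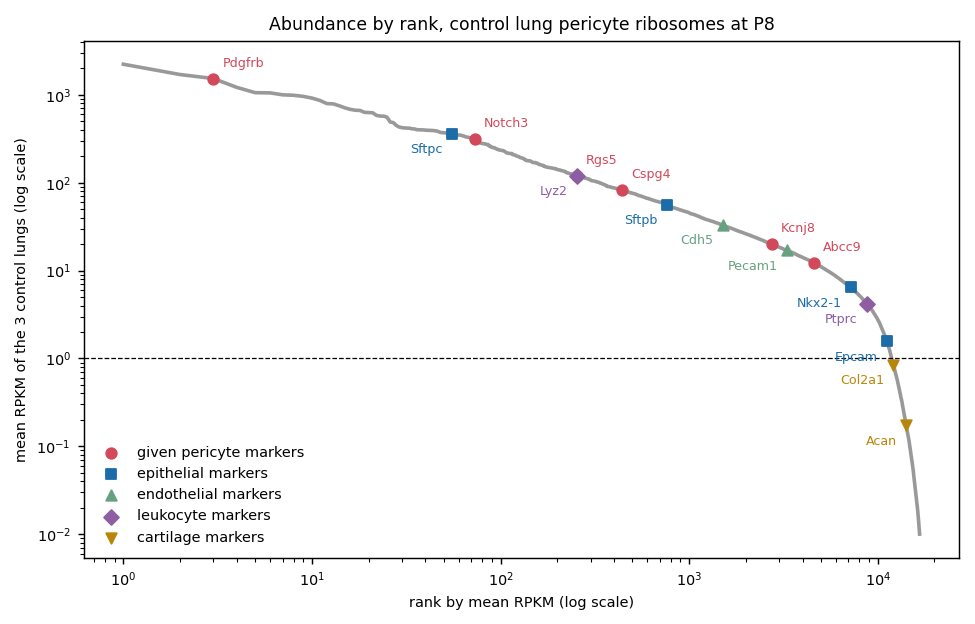
Mean RPKM of the 3 control lungs against rank, both on log scales, for genes with a mean of 0.01 RPKM or more. The grey line is all genes, the dashed line is 1 RPKM, and symbols mark marker genes: Pdgfrb lies at rank 3, Sftpc at rank 55, Notch3 at rank 73, Cdh5 at rank 1508 and Pecam1 at rank 3302, while the cartilage markers Col2a1 and Acan lie under 1 RPKM.

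Ribosomal protein genes were widely detected. Of 88 genes that match ribosomal protein names, 83 were members, with a median of 67.6 RPKM over the list, and together they held 3.33%, 3.47% and 3.09% of the summed RPKM. Rpl8 was the most abundant at 369, 384 and 343 RPKM, followed by Rpl4 (317 ± 5.71) and Rpl19 (277 ± 20.2). Rpl22 itself, whose protein carries the tag, was at 33.5, 29.2 and 27.7 RPKM. Ribosomal protein genes have many processed copies in the mouse genome, so low values in this family, such as Rps15a at 6.16 ± 0.408 and Rps19 at 8.18 ± 0.995 RPKM, are uncertain. All 19 translation factor genes listed were members, led by Eef1a1 at 851, 915 and 827 RPKM and the elongation factor gene Eef2 at 442, 390.2 and 367 RPKM. Core and linker histone genes held 2.64%, 2.67% and 2.36% of the summed RPKM, with 60 of 73 at 1 RPKM or more. Replication-dependent histone transcripts lack a poly(A) tail and are kept by total RNA libraries such as these, and near-identical copies make the values of single histone genes uncertain: Hist1h2al was at 115, 0.455 and 0.152 RPKM and Hist1h4m at 0, 38.1 and 34.9 RPKM.

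Start-site sequence was set beside abundance for the genes with a RefSeq promoter window (250 bases before to 50 after a start, GRCm38.p6), which were 16240 of 21603 by symbol and 67 of the 100 most abundant. The TATA box letters TATAAA, searched on the gene's strand with the motif starting 40 to 20 bases before the start, occurred in 4 of those 67 genes (5.97%), in 125 of 9294 members (1.34%), in 364 of 6946 genes under 1 RPKM (5.24%) and in 3.01% of all matched genes. The abundant genes with it were the matricellular gene Postn, the intermediate filament gene Vim, the β-globin gene Hbb-bt and the histone variant gene H3f3b. Their windows from 40 to 11 bases before the start are printed on the gene's strand with TATAAA in capitals, because these are the members of the top 100 that hold this element. They lie at chr3:54361067-54361096 (plus strand) for Postn, chr2:13574271-13574300 (plus) for Vim, chr7:103813934-103813963 (minus) for Hbb-bt and chr11:116024515-116024544 (minus) for H3f3b.
Postn: acagcccagagctaTATAAActcagctctc
Vim: aacagtgtTATAAAagcagcgcccttggcg
Hbb-bt: cagcattgggtaTATAAAgctgagcagggt
H3f3b: cgtgcagcgtctcTATAAAtatggaggcgt

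A start on C followed by 4 pyrimidines (C or T), the form that the terminal oligopyrimidine tract of translation-related mRNAs takes, was found in 15 of 62 ribosomal protein genes with a window (24.2%), in 4.48% of the 67 abundant genes, in 2.95% of members and in 2.75% of all matched genes. None of the 62 ribosomal protein genes had TATAAA in the searched stretch. The 3 most abundant ribosomal protein genes with such a start are printed from 10 bases before to 15 bases after the start, the tract in capitals. They lie at chr11:114668570-114668594 (plus strand) for Rpl38, at 140.5 RPKM, chr9:120571507-120571531 (plus) for Rpl14, at 140.4 RPKM, and chr19:6057937-6057961 (plus) for Fau, at 126 RPKM. The share depends on the annotated start being exact to the base, and a match is a match of letters only.
Rpl38: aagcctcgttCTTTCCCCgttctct
Rpl14: ggccctctctCTTCTCgctgagcgc
Fau: gcccccacttCTTCCTCTTTCTTga

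The 6 pericyte markers given for these libraries were all members. So were all 10 listed genes of alveolar type 2 epithelium and 54.9% of all genes, so membership alone is no check of the label. Pdgfrb, the PDGF-B receptor, was the highest at 1533 ± 151 RPKM. Notch3, the mural cell Notch receptor, was at 343, 279 and 319 RPKM. Rgs5, a regulator of G-protein signalling that marks pericytes, was at 156, 83.96 and 115 RPKM, and Cspg4, which encodes the NG2 proteoglycan, at 77.1, 80.8 and 87.5 RPKM. Control 1 was highest and control 2 lowest for Pdgfrb, Notch3 and Rgs5, and the ranges of Rgs5 and Cspg4 overlapped. The channel pair that forms the vascular ATP-sensitive potassium channel was lower: its pore gene Kcnj8 was at 26.3, 17.2 and 16.4 RPKM and its sulfonylurea receptor gene Abcc9 at 13.8, 11.3 and 11.8 RPKM. Pdgfrb exceeded Cspg4 by a log2 ratio of 4.23 ± 0.18 within a library (18.7-fold) and Kcnj8 exceeded Abcc9 by 0.67 ± 0.23, each in 3 of 3 lungs.

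A further list of 18 mural cell genes was present without exception, with a list median of 144 RPKM beside 1.93 RPKM for all genes. Besides Gucy1a1, Cox4i2, Mcam and Pde5a, the 8 most abundant included Gucy1b1, the partner subunit of soluble guanylate cyclase, at 399, 397 and 464 RPKM, Higd1b at 488, 343 and 419.8, Ndufa4l2 at 468, 286 and 363 and the UDP-glucose receptor gene P2ry14 at 223, 213 and 208 RPKM. Higd1b and Ndufa4l2 were highest in control 1 and lowest in control 2, as Pdgfrb was. Cd248, which encodes endosialin, the Notch target Heyl and the cation channel gene Trpc6 followed at 146 ± 15.7, 142 ± 14.8 and 124 ± 12.4 RPKM. The lowest were Lamc3 at 4.48 ± 0.422 and Anpep, which encodes aminopeptidase N (CD13), at 2.14 ± 0.0500 RPKM. The 6 given and the 18 further markers held 0.848 ± 0.069% and 2.11 ± 0.15% of the summed RPKM.

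**Figure D2:**
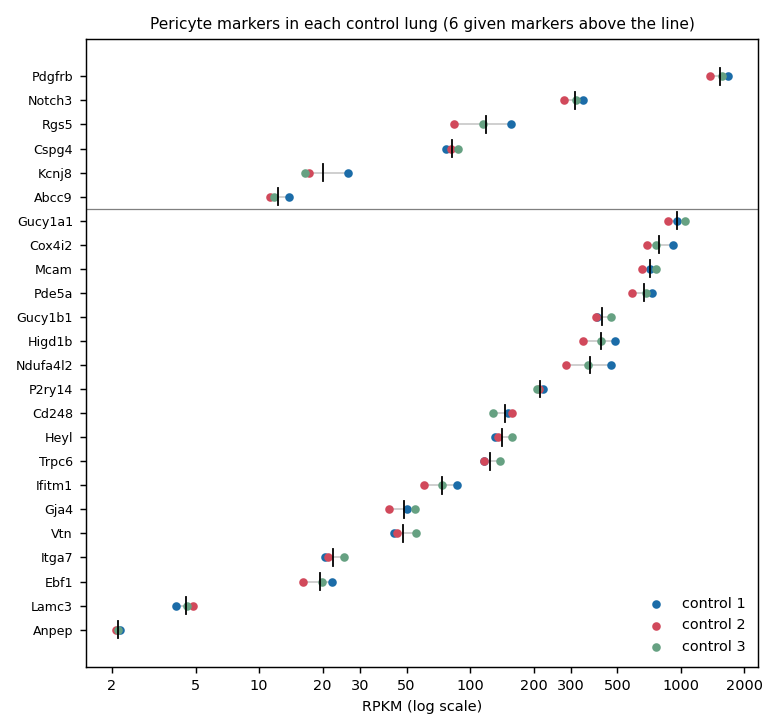
RPKM (log scale) of the 6 given pericyte markers, above the grey line, and of 18 further mural cell genes, below it. Points are the 3 control lungs and the black bars are their means: Pdgfrb has a mean of 1533 RPKM, Gucy1a1 of 961 RPKM, and Abcc9, Lamc3 and Anpep lie lowest, from 12.3 down to 2.14 RPKM.

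Genes of the actomyosin apparatus and of cyclic GMP signalling were among the most abundant. Of 24 contractile genes 22 were members and 9 had means of 100 RPKM or more, beside 54.9% and 1.55% of all genes. The list median was 82.8 RPKM, and the list held 1.76%, 1.78% and 1.77% of the summed RPKM. Acta2, smooth muscle α-actin, was at 594, 757 and 698 RPKM, lowest in control 1. By imaging, the study saw no Cre reporter label in bronchial smooth muscle cells or myofibroblasts positive for this protein. Which cells held the contractile transcripts of these libraries was not tested. Tagln (transgelin) was at 394, 370.0 and 335 RPKM and Myh11, smooth muscle myosin heavy chain, at 133, 151 and 153 RPKM. Des, which encodes desmin, was at 98.9 ± 3.01 RPKM. Within the list the smooth muscle genes spanned a wide range, since Cnn1 (calponin) was at 14.4, 16.4 and 13.3 RPKM, a log2 ratio of Acta2 over Cnn1 of 5.53 ± 0.17 (46.3-fold). The potassium channel subunit gene Kcnmb1 was at 2.99 ± 0.699 RPKM, and the sarcoplasmic reticulum genes Casq2 (calsequestrin) and Pln (phospholamban) were not members, at 0.242 ± 0.0895 and 0.0942 ± 0.0630 RPKM. Gucy1a1 exceeded Gucy1b1 by a log2 ratio of 1.19 ± 0.07 in 3 of 3 lungs, and the alternative subunit gene Gucy1a2 was at 42.8 ± 5.15 RPKM.

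The matrix programme combined basement membrane, fibrillar collagen and elastic fibre genes. Of 44 collagen chains 28 were members, and 7 had means of 100 RPKM or more, beside 54.9% and 1.55% of all genes. Col4a1 was at 901, 711 and 772 RPKM and Col4a2 at 569, 442 and 462 RPKM, a log2 ratio of 0.70 ± 0.04. Col3a1, of interstitial fibrils, was at 631, 693 and 573 RPKM. Col4a1 was above Col3a1 in 3 of 3 lungs, but by a log2 ratio that ran from 0.04 in control 2 to 0.51 in control 1. The type I chains Col1a1 and Col1a2 were at 346 ± 51.2 and 294 ± 30.3 RPKM, with overlapping ranges, followed by Col5a1 (150.4 ± 11.6) and Col6a1 (112 ± 16.7). The other type IV chains lay far lower, from 10.6 RPKM for Col4a4 to 1.45 RPKM for Col4a6. The cartilage collagen genes Col2a1 (0.844 ± 0.595) and Col9a1 (0.0717 ± 0.114) and the epithelial collagen gene Col17a1 (0.151 ± 0.0342 RPKM) were not members. Col27a1, a fibrillar collagen gene also of cartilage, and Col7a1, of epithelial anchoring fibrils, were members at 7.03 ± 0.490 and 4.99 ± 0.394 RPKM.

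Basement membrane genes other than collagens followed the same order in each library for the leading members. Nid1, which encodes nidogen and links laminin to type IV collagen, was at 328, 301 and 335 RPKM. The laminin γ1 and β1 chain genes Lamc1 and Lamb1 were at 170.2 ± 6.52 and 126 ± 1.82 RPKM. Among the α chains Lama2 was at 84.3, 79.2 and 82.9 RPKM, Lama4 at 60.5, 61.2 and 61.8, Lama3 at 35.1, 43.04 and 49.7 and Lama5 at 35.2, 34.8 and 28.97 RPKM, and Lama1 was not a member (0.913 ± 0.260). Lama2 lay above Lama4, and Lama4 above Lama3, without overlap. The perlecan gene Hspg2 was at 76.7 ± 6.90 RPKM, with a range that overlapped those of Lama2 and Lamb2. In all, 22 of the 23 genes of the list were members, at a list median of 41.3 RPKM.

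Elastic fibre genes held 1.34 ± 0.14% of the summed RPKM, with Eln the highest, and 21 of 22 were members. The study uses tropoelastin as a myofibroblast marker, and which cells held Eln here was not tested. Eln was highest in control 2 and exceeded Fbn1, the gene of the fibrillin-1 microfibril scaffold, by a log2 ratio of 2.97 ± 0.18 (7.85-fold). Ltbp2, a latent TGFβ binding protein gene, was at 450.0, 398 and 379.9 RPKM, Fbn1 at 213, 221 and 212 and Fbn2, the fibrillin that predominates in growing tissue, at 79.7, 113 and 138 RPKM. Fbn2 was lowest in control 1 and varied more than Fbn1. The microfibril-associated genes Mfap4 and Mfap2 and the lysyl oxidase-like gene Loxl1 were at 152 ± 11.2, 139 ± 20.02 and 116 ± 18.5 RPKM, and in the order Mfap4, Mfap2, Loxl1, Fbn2, Ltbp4 each range overlapped the next. Lox was at 21.5 ± 2.63 and the fibulin gene Fbln5 at 22.5 ± 1.003 RPKM.

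Matricellular genes, which encode secreted proteins that modulate cell-matrix contact, were led by Sparc at 1079, 1036 and 1062 RPKM and the periostin gene Postn at 1008, 1006 and 1145 RPKM, whose ranges overlapped. Tgfbi was at 336, 374 and 234 RPKM, lowest in control 3, and the tenascin gene Tnc at 120.5, 148 and 112 RPKM. The CCN family members differed in steadiness. Ccn4 (WISP1) was at 129, 114 and 128 RPKM and Ccn5 (WISP2) at 24.8, 21.4 and 23.7 RPKM, with little spread. Ccn2 (CTGF) was at 49.98, 94.1 and 114 and Ccn1 (CYR61) at 23.1, 77.5 and 91.9 RPKM, both lowest in control 1. Spp1, the osteopontin gene, was not a member (0.433 ± 0.208 RPKM).

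Proteoglycan genes were led by Sdc2 (178 ± 9.76 RPKM) and the biglycan gene Bgn (166 ± 12.3), with overlapping ranges, and then Aspn (114 ± 7.01). Fmod, the fibromodulin gene, was at 91.4, 5.05 and 98.2 RPKM, so that control 2 lay far below the other lungs. The cartilage proteoglycan gene Acan was at 0.173 ± 0.0936 RPKM. Matrix turnover genes included the tissue inhibitor Timp2 (120.1 ± 18.5 RPKM), the membrane-type protease Mmp14 (116 ± 2.71) and the gelatinase Mmp2 (82.9 ± 11.6), while Mmp9, Mmp8 and Mmp12, proteases best known from leukocytes, were under 1 RPKM at 0.773 ± 0.141, 0.723 ± 0.253 and 0.351 ± 0.0914. Of 26 genes for collagen folding and secretion 25 were members, led by Serpinh1, the collagen-specific chaperone HSP47, at 603, 636 and 636 RPKM.

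Receptor tyrosine kinases were dominated by Pdgfrb. Of 55 genes 41 were members, beside 54.9% of all genes. Means of 100 RPKM or more were reached by 3, beside 1.55% of all genes. These were Pdgfrb, the GAS6 receptor gene Axl at 233, 148 and 159 RPKM and the pseudokinase gene Ptk7 at 129.7, 113 and 121 RPKM. Pdgfra, the other PDGF receptor and a fibroblast and myofibroblast marker, was at 34.01, 44.1 and 29.8 RPKM, and Pdgfrb exceeded it by a log2 ratio of 5.43 ± 0.41 (43.1-fold). The collagen receptor gene Ddr2 was at 48.8 ± 0.839 and the IGF1 receptor gene Igf1r at 25.5 ± 0.877 RPKM. The angiopoietin receptor gene Tek was at 20.2, 22.6 and 27.01 RPKM and the VEGF receptor genes Kdr and Flt1, which mark endothelium, at 15.4 ± 2.06 and 6.76 ± 0.443 RPKM. Met, the HGF receptor gene, was at 5.68, 7.07 and 6.10 RPKM, and its ligand gene Hgf exceeded it by a log2 ratio of 2.14 ± 0.14 (4.42-fold). In sorted lung cells the study found Met transcripts in epithelial cells, and Tek strong in endothelial cells but not in pericytes. The neural kinase gene Ret (0.115 ± 0.0552) was not a member.

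Notch receptors were ordered Notch3, Notch2, Notch1 and Notch4 in every library, without overlap. Notch2 was at 81.5, 73.3 and 73.2, Notch1 at 31.2, 29.1 and 31.2 and Notch4, the endothelial member, at 7.97, 7.58 and 7.34 RPKM. Notch3 exceeded Notch2 by a log2 ratio of 2.04 ± 0.10 and Notch1 by 3.36 ± 0.10. The ligand genes were lower, with Jag1 at 10.3 ± 1.66 and Dll4 at 5.53 ± 0.640 RPKM.

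Of 14 TGFβ and BMP receptor genes 11 were members. The co-receptor gene Eng (endoglin) was at 117, 87.9 and 88.6 RPKM, Tgfbr2 at 84.01, 70.3 and 71.5 and Bmpr2 at 73.2, 66.7 and 72.6 RPKM, and the last 2 overlapped in range. The type I receptor genes Acvrl1 (ALK1) and Tgfbr1 (ALK5) were at 50.1 ± 1.70 and 14.3 ± 0.366 RPKM. Eng and Acvrl1 are also endothelial genes. Bmpr1b and Acvr1c were not members (0.294 ± 0.0631 and 0.0631 ± 0.0201 RPKM).

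The Wnt receptor gene Fzd1 was at 148, 133 and 132 RPKM, above Fzd7 by a log2 ratio of 2.20 ± 0.06 (4.60-fold), and the co-receptor genes Lrp5 and Lrp6 were at 32.8 ± 5.12 and 31.4 ± 1.24 RPKM. Integrin genes were led by Itgb1, the common β1 chain, at 355, 324 and 368 RPKM, and Itga1, which pairs with it as a collagen receptor, at 284, 265 and 311 RPKM. Itga1 exceeded Itga8 (53.04 ± 2.96 RPKM) by a log2 ratio of 2.43 ± 0.09 (5.40-fold). The leukocyte integrin genes Itgb2 and Itgam were at 4.71 ± 1.70 and 1.47 ± 0.490 RPKM.

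Vasoactive and metabolite receptor genes were uneven. Of 47 genes 32 were at 1 RPKM or more (beside 54.9% of all genes) and 4 at 100 RPKM or more (beside 1.55%). Beside the guanylate cyclase subunits these were F2r, the thrombin receptor PAR1, at 386, 297 and 362 RPKM, and the sphingosine-1-phosphate receptor gene S1pr3 at 123, 99.6 and 121 RPKM. Ednra, the endothelin receptor of mural cells, was at 68.7, 67.9 and 77.2 RPKM and exceeded Ednrb (5.12 ± 0.907 RPKM) by a log2 ratio of 3.81 ± 0.26 (14.05-fold). The angiotensin receptor gene Agtr1a was at 38.9 ± 5.59 RPKM. Several catecholamine, serotonin and muscarinic receptor genes were under 1 RPKM, among them Adra2a (0.123 ± 0.0263), Htr2b (0.0463 ± 0.0228) and Chrm2 (0.544 ± 0.0726). Among channels Trpc6 was at 117, 117 and 138 RPKM, the background potassium channel gene Kcnk3 at 85.7, 59.02 and 64.2, the connexin genes Gja4 and Gjc1 at 48.8 ± 7.01 and 42.8 ± 5.17, and the L-type calcium channel gene Cacna1c at 36.1 ± 1.86 RPKM. Piezo2 and Piezo1, which encode mechanosensitive channels, were at 13.7 ± 0.218 and 12.1 ± 0.711 RPKM.

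The leading transcription factors were T-box and forkhead genes of lung mesenchyme. Of 164 listed genes 136 were members, 86 had means of 10 RPKM or more and 7 of 100 RPKM or more. Tbx2 was at 306, 208 and 236 RPKM, Tbx4, an early lung mesenchyme gene, at 197, 154 and 158 and Tbx5 at 87.1, 73.3 and 79.5 RPKM. Tbx2 was above Tbx4 without overlap, and Tbx4 exceeded Tbx5 by a log2 ratio of 1.08 ± 0.09. The forkhead genes Foxf1 and Foxf2, which act downstream of hedgehog signals in lung mesenchyme, were at 177, 137 and 148 and 171, 129.6 and 135 RPKM, the hypoxia-inducible factor gene Epas1 (HIF-2α) at 143, 101 and 111 and the BMP target Id3 at 104 ± 12.5 RPKM. Tbx4, Foxf1, Foxf2, Heyl, Epas1 and Id3 formed a run in which each neighbour overlapped the next. Tbx2, Tbx4, Foxf1, Foxf2 and Epas1 were each highest in control 1 and lowest in control 2, and 95 of the 136 factors were highest in control 1, beside 44.1% of all members.

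Lower in the same list were the mural genes Foxs1 (57.8 ± 5.90 RPKM) and Ebf1 (19.4 ± 3.02), the lung fibroblast gene Tcf21 (52.6 ± 6.08) and the venous and mesenchymal gene Nr2f2 (46.6 ± 9.26). The smooth muscle coactivator gene Myocd was at 4.18, 4.51 and 4.09 RPKM, well under the serum response factor gene Srf (26.3 ± 2.28). Tbx18, a mural cell factor of other organs, was not a member at 0.325, 0.588 and 0.413 RPKM. Other factors listed under 1 RPKM included Sox9 (0.355 ± 0.106), Gata4 (0.135 ± 0.0157), Hand2 (0.0280 ± 0.0164) and Foxd1 (0.0897 ± 0.0469), while Hand1, Nkx2-3, Nkx3-2 and Zic1 were listed at 0 in every library.

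Hox genes, which record position along the body axis, were limited to the anterior genes of clusters a and b. Of 38 genes 13 were members. The highest were Hoxa5, needed for lung development, at 18.8, 20.2 and 18.2 RPKM, Hoxb2 at 14.5, 14.5 and 12.9 and Hoxa2 at 13.2, 10.8 and 12.1 RPKM. Hoxb8 was next below the limit at 0.345, 0.304 and 0.196 RPKM. No gene of clusters c and d was a member, and the highest of these was Hoxd8 at 0.0972 ± 0.0165 RPKM.

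All 21 Hippo pathway genes listed were members, with a median of 18.8 RPKM. Wwtr1, which encodes TAZ, was at 71.3, 53.8 and 56.1 RPKM and Yap1 at 13.2, 11.5 and 12.4 RPKM, a log2 ratio of 2.28 ± 0.13 in favour of Wwtr1 (4.86-fold). The mice were heterozygous for a floxed allele of each, so neither value is that of a wild-type cell. The kinase genes Lats2 and Lats1 were at 48.00 ± 3.49 and 21.96 ± 1.16 RPKM. The TEAD factors through which both coactivators act on DNA were at 16.5 ± 2.20 (Tead2), 15.9 ± 2.13 (Tead1), 12.6 ± 2.08 (Tead3) and 4.11 ± 0.563 RPKM (Tead4), and Ajuba, a LATS-binding LIM protein gene, was the highest of the list at 162, 121 and 151 RPKM.

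Secreted growth factors were led by Mdk, the heparin-binding factor midkine, at 214, 159 and 162 RPKM. Angpt1, the agonist ligand of the endothelial receptor TIE2, was at 60.4, 56.03 and 57.5 RPKM, and exceeded Angpt2 (15.1, 13.9 and 18.2 RPKM) by a log2 ratio of 1.89 ± 0.20 (3.71-fold). Of the TGFβ ligand genes, Tgfb2 was at 49.5, 45.9 and 49.3 RPKM, Tgfb3 at 49.2, 44.1 and 37.3 and Tgfb1 at 10.4, 9.28 and 7.34 RPKM. Tgfb2 exceeded Tgfb1 by a log2 ratio of 2.44 ± 0.27, while its ratio to Tgfb3 was only 0.16 ± 0.22 and their ranges overlapped. The vitamin K-dependent ligand genes of AXL and its relatives, Pros1 and Gas6, were at 46.4 ± 2.71 and 26.3 ± 6.07 RPKM. Hbegf, the stem cell factor gene Kitl and Vegfa were at 43.6 ± 4.02, 34.6 ± 3.29 and 31.4 ± 1.71 RPKM, the last also a gene of alveolar type 1 cells.

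Hgf was at 26.2, 27.9 and 28.8 RPKM. Pdgfa was at 20.2 ± 2.64 RPKM, and Pdgfb, the endothelial ligand of PDGFRβ, at 11.1 ± 0.228 RPKM. Igf1 and Igf2 were at 8.86 ± 1.36 and 8.44 ± 0.401 RPKM, and Fgf10 and Fgf7, epithelial growth factors made by lung fibroblasts, were near the limit at 1.19 ± 0.105 and 1.58 ± 0.302 RPKM. Of 67 growth factor and cytokine genes 41 were members, beside 54.9% of all genes. Il6 was at 0.0880 ± 0.110 RPKM, and Csf3 was listed at 0 in every library.

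Among 32 Wnt, BMP, hedgehog and R-spondin ligand genes 13 were members. Wnt11 was at 48.6, 41.5 and 34.1 RPKM, Bmp5 at 38.05, 35.7 and 36.3 and Bmp4 at 38.5, 35.4 and 34.9 RPKM, and the ranges of Wnt11, Bmp5 and Bmp4 overlapped in turn. Wnt5a followed at 22.8, 24.5 and 17.7 and Bmp2 at 21.6, 19.4 and 17.3 RPKM. Wnt2, a ligand of lung mesenchyme, was at 4.92 ± 0.625 RPKM, and the epithelial ligands Wnt7b and Shh were under the limit at 0.664 ± 0.0579 and 0.911 ± 0.176 RPKM. Antagonists and modulators reached higher levels, with the follistatin-like gene Fstl1 at 366, 375 and 354 RPKM, Dkk3 at 161, 146 and 148 and Nbl1 at 63.6, 54.2 and 45.9 RPKM. The hedgehog antagonist gene Hhip was at 10.9 ± 1.64 and the BMP antagonist genes Grem1 and Nog at 1.25 ± 0.0878 and 1.21 ± 0.258 RPKM.

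Igfbp7 was the highest IGF-binding protein gene at 177, 154 and 153 RPKM, above Igfbp4 (72.4 ± 12.3) and Igfbp5 (50.8 ± 1.27), and Igfbp1 was listed at 0. The leading guidance ligand genes lay close together, with Slit3 (25.4 ± 1.38 RPKM), Efnb1 (24.3 ± 2.02), Sema3c (22.7 ± 2.27), Sema3f (22.5 ± 3.38) and Ntn4 (20.6 ± 3.85) overlapping in turn. The median of the 21 guidance genes listed was 6.46 RPKM. Only 10 of 37 chemokine genes were members. The highest was Cxcl15, a chemokine of lung epithelium, at 21.7, 19.9 and 18.9 RPKM, then Cxcl14 at 14.8, 8.68 and 9.99 RPKM, and Cxcl12, the CXCR4 ligand often made by mesenchyme, was at 7.78, 5.84 and 6.49 RPKM. The complement inhibitor gene Serping1 and the protease gene C1s1 were at 88.9 ± 3.82 and 64.6 ± 5.97 RPKM.

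**Figure D3:**
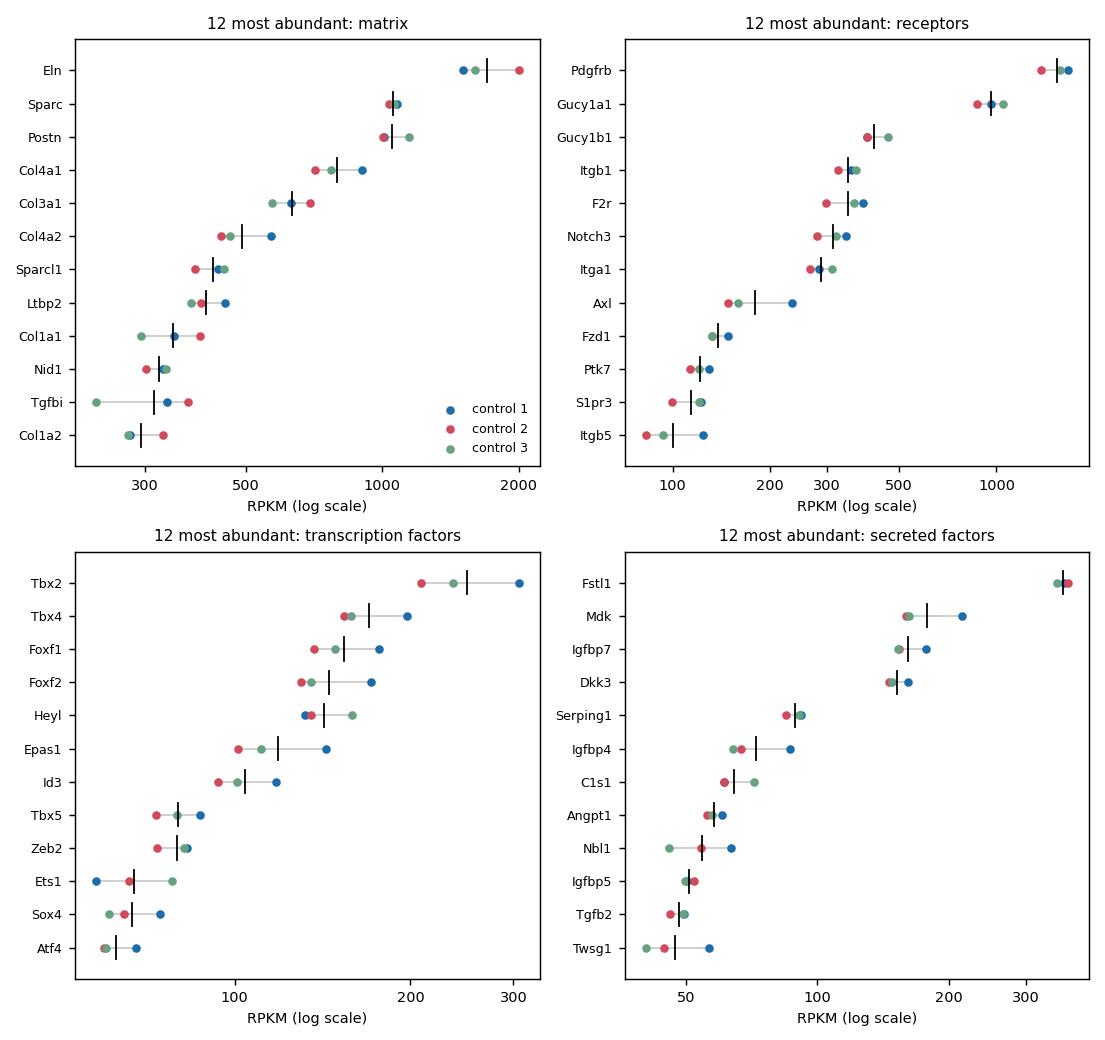
RPKM (log scale, with its own range in each panel) of the 12 most abundant genes of the matrix, receptor, transcription factor and secreted factor lists. Points are the 3 control lungs and black bars their means: Eln, Pdgfrb, Tbx2 and Fstl1 lead their panels, at means of 1702, 1533, 250.2 and 365 RPKM, and control 1 is the highest point for Tbx2, Tbx4, Foxf1 and Foxf2.

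Transcripts that define other lung cells were present, and their list medians lay below those of both pericyte lists except for erythroid genes. Of 22 endothelial genes 21 were members but none reached 100 RPKM, with a list median of 10.7 RPKM and a summed level of 335 to 364 RPKM per library. The highest were Egfl7 (60.6, 62.9 and 59.4 RPKM), the adhesion gene Esam (40.3 ± 5.97) and the claudin gene Cldn5 (38.3 ± 4.51). Cdh5, VE-cadherin, was at 31.6, 32.8 and 34.5 RPKM and Pecam1 at 14.4, 17.7 and 18.7 RPKM. Pdgfrb exceeded Cdh5 by a log2 ratio of 5.54 ± 0.17 (46.4-fold) and Pecam1 by 6.50 ± 0.31 (90.7-fold). The lymphatic factor gene Prox1 was under the limit at 0.427 ± 0.0746 RPKM.

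Alveolar epithelial genes held a wider range. The surfactant protein gene Sftpc, the marker of alveolar type 2 (AT2) cells, was at 369, 338 and 381 RPKM and ranked 55 of all genes, above Notch3. Pdgfrb exceeded it by a log2 ratio of only 2.08 ± 0.08 (4.22-fold). The other AT2 genes were lower, with Sftpb at 53.3, 56.7 and 57.9 RPKM, Slc34a2 at 43.5, 52.1 and 53.7 and Lamp3 at 12.1 ± 1.70 RPKM, and all 10 of the list were members. Genes that mark epithelium of every kind lay lower still: Nkx2-1 was at 7.21, 5.91 and 6.16 RPKM, Cdh1 at 4.005, 5.07 and 4.997 and Epcam at 1.44, 1.60 and 1.64 RPKM, with a median of 4.69 RPKM over 9 genes, 7 of them members. Sftpc exceeded Epcam by a log2 ratio of 7.86 ± 0.14 (232-fold). The alveolar type 1 genes Ager and Aqp5 were at 27.96 ± 1.43 and 14.2 ± 2.27 RPKM, and all 9 of that list were members. Among airway genes the club cell secretory gene Scgb1a1 was at 146, 83.97 and 112 RPKM and Scgb3a2 at 20.8 ± 3.92. Of genes listed for ciliated cells, Tppp3 was at 119, 95.1 and 88.99 RPKM. The transcription factor gene Foxj1 and Ccdc39 were under the limit, at 0.688 ± 0.168 and 0.484 ± 0.152 RPKM, and the cell source of Tppp3 was not tested. The basal cell gene Trp63 was at 0.0317 ± 0.0222 RPKM, and Krt5 was listed at 0 in every library.

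Blood cell transcripts also ranged widely. The globin genes Hbb-bs, Hba-a1, Hbb-bt and Hba-a2 were at 1216 ± 127, 449 ± 55.97, 396 ± 62.7 and 388 ± 42.2 RPKM, and the 8 erythroid genes summed to 2222, 2784 and 2442 RPKM, or 0.877%, 1.16% and 1.01% of the total. Reads of near-identical globin copies may be split between them. Alas2, an erythroid haem synthesis gene, was at 21.9 ± 2.46 RPKM. Of leukocyte genes, the common marker Ptprc (CD45) was at 3.58, 5.04 and 4.05 RPKM and the list median was 4.43 RPKM over 8 genes, all members. Lyz2, the lysozyme gene of macrophages and neutrophils that AT2 cells can also express, was at 122, 149.5 and 84.7 RPKM, beside Csf1r at 5.55, 10.8 and 6.70 and Adgre1 (F4/80) at 1.82 ± 0.611 RPKM. The neutrophil genes S100a9 and S100a8 were at 40.6, 52.7 and 39.9 and 25.6, 39.4 and 28.01 RPKM. They were the highest of 9 neutrophil genes, of which 8 were members, and the list median was 5.35 RPKM. The T cell genes Cd3e, Cd4 and Cd8a were not members, at 0.144, 0.117 and 0.111.

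Fibroblast genes were well represented, at list medians below those of the pericyte lists. Lists of myofibroblast, adventitial fibroblast and alveolar fibroblast markers had medians of 36.0, 17.9 and 13.8 RPKM, and 8 of 9, 9 of 10 and all 12 genes were members. Among the higher members of the first list were Tgfbi and Aspn. Those of the second included the dermatopontin gene Dpt (99.3 ± 17.95 RPKM) and Cd34 (84.6 ± 16.98), and those of the third Npnt (61.8 ± 3.74) and Limch1 (55.3 ± 3.38). Lowest were Dach2 in the first list and Scara5 (0.542 ± 0.0681 RPKM) in the second, which were not members. Pi16 of the second list and Fgf10 of the third were near the limit at 1.39 ± 0.212 and 1.19 ± 0.105 RPKM. Several genes of these lists, such as Tgfbi and Mfap4, are not exclusive to fibroblasts. The mesothelial genes Msln and Wt1 were at 3.20 ± 0.366 and 0.173 ± 0.0808 RPKM. None of 6 neural and Schwann cell genes and none of 6 cartilage genes was a member, with Col2a1, the highest cartilage gene, at 0.541, 1.53 and 0.461 RPKM, and Snap25 was listed at 0 throughout. Of 8 cardiac muscle genes 5 were members, led by the actin gene Actc1 at 31.01, 35.6 and 32.1 RPKM. Actc1 is also in the contractile list, and the next cardiac gene, Myl7, had a mean of 3.92 RPKM. Myh6 was at 1.23, 4.51 and 3.44 and Tnnt2 at 1.57, 2.94 and 1.997 RPKM. By quantitative PCR at a later age, the study found pericyte markers enriched in such precipitates relative to input. It described endothelial and epithelial markers as depleted there, and Pecam1 and Sftpc as very low in sorted cells with the Cre reporter label. Which RNAs of these libraries lay on tagged ribosomes and which were carried over from the lysate was not tested.

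**Figure D4:**
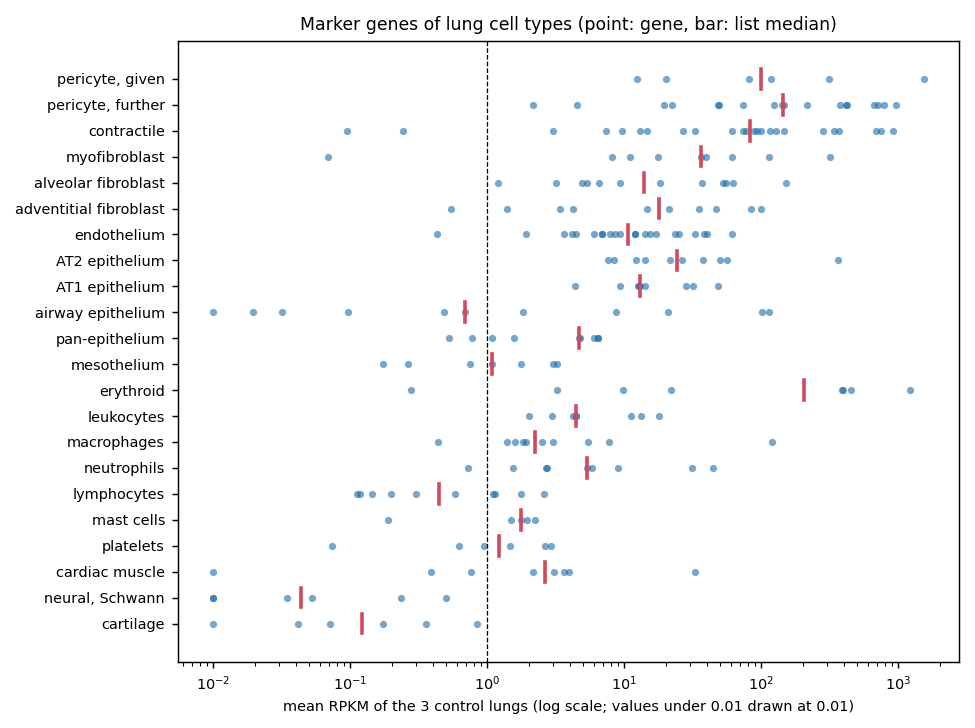
Mean RPKM (log scale) of each marker gene, as points, by cell type list, with the list median as a red bar and 1 RPKM as a dashed line. List medians are highest for erythroid genes (205 RPKM) and further pericyte markers (144 RPKM). They are 10.7 RPKM for endothelium, 4.69 RPKM for pan-epithelial genes and 0.0434 RPKM for neural genes. Single points such as Sftpc and Lyz2 lie far to the right of their lists.

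The 3 control lungs were alike for most genes, and the exceptions fell into groups. The coefficient of variation (CV, SD over mean) had a median of 9.22% over members and of 8.20% over genes of 10 RPKM or more, and 40 of those 5400 genes had a CV over 30%. The steadiest included Ahsa1 at 63.8, 64.1 and 64.04 RPKM and the filamin gene Flna at 283, 284 and 283 RPKM. Over the 2 remaining lungs the median CV of members was 4.72% without control 1, 9.01% without control 2 and 9.31% without control 3, so control 1 stood farther from the other lungs than they did from each other. Of genes of 10 RPKM or more, 71 lay over 1.5 times above or below both other lungs in control 1, beside 4 in control 2 and 7 in control 3.

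Immediate-early genes, which are induced within minutes of a stimulus, were lowest in control 1 in 11 of 14 members, beside 38.0% of all members. Egr1 was at 4.92, 14.8 and 18.1 RPKM, Fos at 2.89, 12.9 and 9.93, Nr4a1 at 7.53, 17.5 and 23.6 and Dusp1 at 28.4, 60.1 and 54.6 RPKM, while Jund ran the other way at 73.04, 43.7 and 37.1 RPKM. With Ccn1, Ccn2 and Plk2 (34.6, 75.5 and 72.2 RPKM), they were among the 25 most variable genes of 10 RPKM or more, except Fos, whose mean was under 10. The cold-inducible RNA-binding protein gene Cirbp was highest in control 1, at 48.7, 19.7 and 18.8 RPKM. Exon length, merged over all annotated transcripts of a gene, went with the differences of controls 1 and 3. Across 11845 members with a length, Spearman's rho was taken between exon length and the log2 difference from the mean of the other lungs. It was -0.27 in control 1, 0.10 in control 2 and 0.31 in control 3. From genes of up to 2871 bases to genes of 7038 bases or more, the median difference ran from 0.13 to -0.07 in control 1. In control 3 it ran from -0.08 to 0.06. Genes are not independent replicates, the 3 differences share libraries, and the part of length in these and the following library differences was not tested.

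Control 2 was highest for most myeloid, erythroid and cell cycle genes. It had the highest value of the 3 lungs for 8 of 8 neutrophil, 7 of 8 leukocyte, 7 of 9 macrophage and 6 of 7 erythroid members, and for 19 of 20 proliferation genes, beside 26.6% of all members. Of the 4 lymphocyte members it was highest for 2 and lowest for 2. The proliferation marker Mki67 was the exception among the last, at 35.1, 33.6 and 31.1 RPKM, while the replication genes Pcna and Mcm6 were at 28.1, 40.1 and 36.4 and 24.5, 41.97 and 34.8 RPKM. Pericyte genes went the other way, with control 2 lowest for 4 of the 6 given and 12 of the 18 further markers, beside 33.8% of all members. Control 3 was lowest for 7 of 8 myofibroblast and 8 of 9 adventitial fibroblast members, beside 28.2% of all members, with Clec3b at 35.3, 22.4 and 6.03 RPKM. For alveolar fibroblast genes it was lowest in 1 and highest in 8 of 12 members. It was also lowest for 72 of 83 ribosomal protein and 48 of 60 histone genes, by list medians of -0.16 and -0.26 on the log2 scale, beside -0.08 for all members of up to 2871 bases. The summed neutrophil level was 87.3, 130.1 and 92.1 RPKM and the summed proliferation level 309, 412 and 363 RPKM in controls 1, 2 and 3, a spread that went with the opposite order of Pdgfrb in control 2, and its part in the pericyte values was not tested.

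The Y-linked genes divided the lungs as well. Ddx3y was at 17.2, 0 and 19.7 RPKM and Kdm5d at 6.95, 0 and 8.81 RPKM, so that control 2 carried none or nearly none of these transcripts. The study used mice irrespective of sex and the labels give none. With 1 such lung sex and animal cannot be told apart for genes in which control 2 stood alone, among them Fmod.

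**Figure D5:**
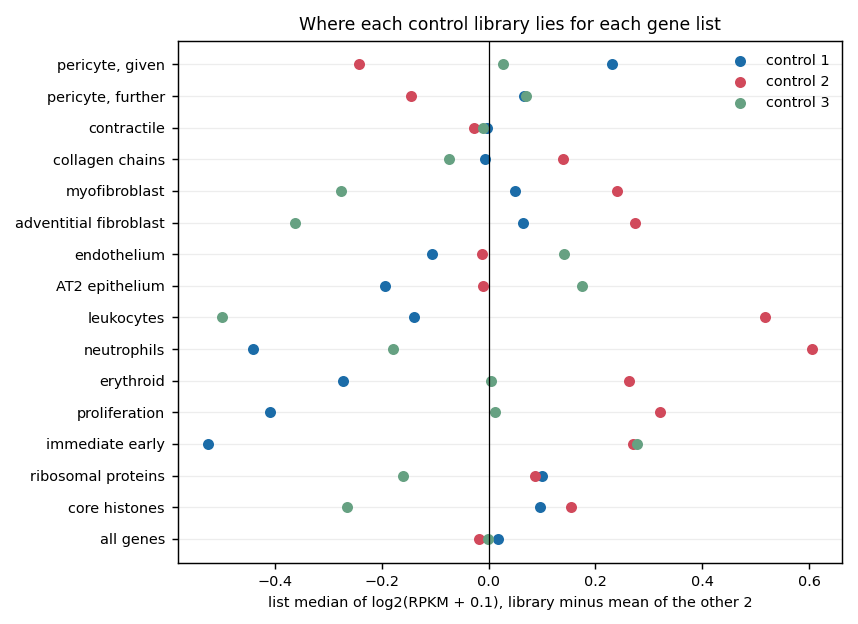
List medians of the difference in log2(RPKM + 0.1) between a control library and the mean of the other 2, for members of each gene list, with all members in the lowest row. Control 2 lies to the right for neutrophil (0.61), leukocyte (0.52) and proliferation genes (0.32) and to the left for the given pericyte markers (-0.24), and control 1 lies to the left for immediate-early genes (-0.52).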

How the data were processed

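The authors made stranded total RNA libraries from anti-HA precipitates, aligned the read pairs with TopHat to mouse build mm10 (GRCm38), assigned reads to genes with HTSeq 0.6.1, and deposited a table of RPKM per Ensembl gene for each sample. The exon length behind an RPKM is not given in the sources used here. Only the 3 control tables were used, without rescaling. Symbols for 21375 of 21603 genes came from GENCODE M21 on the same assembly. Depth was read from genes with 1 annotated transcript longer than 500 bases: at the stated denominators, between 75.4% and 76.6% of 641 to 672 low values of up to 10 reads lay within 0.02 of a whole read.

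The 54 gene lists were written by hand. They, and the choice of these samples, were made with earlier results of these data known, so list counts are descriptions. Named genes are the 30 highest, up to 8 leading members of each list, genes discussed by the study, marker genes at or near 0, and the most and least variable genes of 10 RPKM or more. Others in the lists were named after their values were seen, as were the 1.5-fold and library-order counts. Some genes that this rule names are not reported here. Ratios are mean log2 ratios within libraries, without a pseudocount. Alternatives were each lung left out, medians, other limits, scaling to a fixed sum and gene classes. Python 3.11.15 with pandas 2.3.3 and scipy 1.17.1 was used, and the depth and spread calculations were tested on simulated data.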

Additional observations from a re-analysis of the deposited data

How the results depend on the processing

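Leaving out each lung moved the number of genes of mean 1 RPKM or more between 11833 and 11885, the number holding 50% of the summed RPKM between 950 and 967, and the median CV of members between 4.72% (without control 1) and 9.31%. The share of the 100 most abundant genes was 19.6% with library medians or protein-coding genes only and 20.1% without ribosomal protein and mitochondrially encoded genes, and the median CV was 8.20% for genes of mean 10 RPKM or more. With each library scaled to the same fixed sum, list medians became 408 for the given pericyte markers, 338 for contractile, 56.7 for alveolar fibroblast, 43.5 for endothelial, 19.2 for pan-epithelial and 18.1 for leukocyte genes, in the same order as before, because the scale itself is larger. The other 47 alternatives of these results stayed within 1 SD of the 3 lungs (counts within 1.5 times, the median CV within 1 percentage point), as did the 23 named log2 ratios with a pseudocount of 0.1 RPKM. Leaving out 1 of 3 lungs cannot move a mean ratio by 1 SD, so it is no check of those ratios, and 29 of the 47 also left out a lung. Limits of 0.5 and 2 RPKM gave 12867 and 10730 genes. No paired analysis was possible because a single condition was described. With 3 lungs of unequal depth, low values rest on few reads, RPKM hides the counts, and lysate RNA was not analysed here.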
